A study of Mus musculus with 6 samples.

Results

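The laminin, nidogen and perlecan genes of NIH/3T3 cells were described here across treatment with TGF-β1 and with an inhibitor of the kinase PLK1. These are the glycoproteins of the basement membrane that are not collagens, and 9 genes were taken by their symbols from the 54752 genes of the count table. The rule itself used no expression value, but the set was proposed with earlier results of these data known. They were Lama2, Lama4 and Lama5 (laminin α chains), Lamb1 and Lamb2 (laminin β chains), Lamc1 (the laminin γ1 chain), Nid1 and Nid2 (nidogens) and Hspg2 (perlecan). All 9 genes had counts, and 6 of them passed the expression filter and were tested, namely Lama4, Lamb1, Lamb2, Lamc1, Nid1 and Hspg2. The filter asked for a level of 10 CPM or above in more than 3 libraries, where CPM are counts scaled so that all libraries have the same total, and 9518 genes passed it. Lama2, Lama5 and Nid2 lay below it and are given from a second fit over the 14604 genes that passed edgeR's own filter, filterByExpr.

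NIH/3T3 is an immortalized line of mouse embryonic fibroblasts, and all libraries came from it. There were 3 groups of 2 libraries, each collected after 72 h. The vehicle group received PBS, the second group was given 1 ng/ml TGF-β1 together with DMSO, and the third 1 ng/ml TGF-β1 together with 5 μM BI6727, a small-molecule inhibitor of PLK1. The labels name no DMSO for the vehicle group, so the effects of TGF-β1 and of DMSO cannot be told apart in a comparison with vehicle. The labels do not say that replicates were separate cultures, so p-values measure the spread between these libraries, which may be technical.

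A laminin is a trimer of 1 α, 1 β and 1 γ chain that assembles inside the cell, is secreted, and polymerizes into a sheet held at the cell surface by integrins and dystroglycan. Nidogens bind the γ1 chain and bridge the laminin sheet to type IV collagen, and perlecan, a very large proteoglycan that carries heparan sulfate, joins the same network and holds growth factors. Fibroblasts make these proteins without lying on a full basement membrane themselves, and in many tissues they supply nidogen to the membrane under neighbouring cells.

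Library totals lay between 18362378 and 24452153 counts on genes. All 10 fibroblast markers had counts in at least 1 library, though Fap had at most 10 counts in any. Their summed level lay between 7975 and 10546 normalized CPM (CPM after TMM scaling) in every library, with Vim, at 4014 to 5126, the largest part. Summed endothelial markers stood at 5.71 and 8.10 normalized CPM in vehicle and between 10.8 and 18.8 in the treated libraries, and epithelial markers at 0.363 and 0.683 in vehicle and between 0.911 and 2.37 in the treated libraries. Both sums were thus higher in every treated library, at low levels. Vwf, at 4.88 and 6.64 in vehicle and 8.07 to 14.5 in the treated libraries, made up most of the endothelial sum. Cdh5, Pecam1, Krt14, Cldn4 and Krt8 were also higher in every treated library, while Esam, Tek, Cldn5, Cdh1, Cdh3 and Epcam were not. Cdh1 had a lower mean in both treated groups than in vehicle. The part of these markers in the differences of the members was not tested. Immune markers summed to between 4.38 and 5.96 normalized CPM. The endothelial Kdr and Emcn, the epithelial Krt18 and Krt5, and the immune Adgre1 and Cd3e had 0 counts in all 6 libraries. The 2 DMSO libraries stood apart from each other. Over the genes tested, the SD of the log2 difference between replicates was 0.377 in the DMSO group against 0.163 in the vehicle group and 0.147 in the BI6727 group.

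RefSeq promoter windows (GRCm38.p6, the same build as mm10) were at hand for 6 of the 9 genes. The stretches upstream of the gene start are shown for Lamb1, whose level was higher in every library with TGF-β1 than in vehicle, for Nid1, the most abundant of the 9 transcripts per length in vehicle, and for Hspg2, whose promoter held the most matches. They are written 5′ to 3′ on the plus strand, on which all 3 genes lie, and capitals mark GGGCGG, the letters bound by SP and KLF factors, or its reverse complement CCGCCC.
Lamb1, chr12:31265043-31265233: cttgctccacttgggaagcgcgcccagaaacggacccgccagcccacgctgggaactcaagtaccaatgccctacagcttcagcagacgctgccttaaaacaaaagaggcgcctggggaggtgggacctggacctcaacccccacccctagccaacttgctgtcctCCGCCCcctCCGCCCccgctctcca
Nid1, chr13:13437352-13437550: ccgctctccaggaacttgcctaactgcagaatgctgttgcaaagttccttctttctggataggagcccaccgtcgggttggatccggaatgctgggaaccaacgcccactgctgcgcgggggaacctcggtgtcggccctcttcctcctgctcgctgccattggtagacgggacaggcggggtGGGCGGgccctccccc
Hspg2, chr4:137468553-137468768: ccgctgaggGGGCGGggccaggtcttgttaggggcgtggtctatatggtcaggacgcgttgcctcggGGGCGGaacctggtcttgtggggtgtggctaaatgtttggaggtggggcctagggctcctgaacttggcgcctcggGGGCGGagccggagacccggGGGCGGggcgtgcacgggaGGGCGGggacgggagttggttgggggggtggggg
In the whole window of 250 bases before to 50 after the start, GGGCGG on either strand matched 5 times in Hspg2, 4 times in Lama5, 2 times in Lamb1, 1 time each in Nid1 and Lama2, and 0 times in Lamb2. Of 32851 RefSeq promoter windows of 300 bases, 35.7% held these letters. The AP-1 letters TGANTCA matched in none of the 6 windows and in 7.81% of all promoters. The SMAD letters CAGACA, searched on both strands like the others, matched 1 time in Lamb2 and in none of the other 5 windows, against 21.0% of all promoters. None of these motifs overlaps another. A match is a run of letters, and no binding was measured. The GC content was 63.7% in the Lamb1 window, 64.7% in Nid1, 70.3% in Hspg2 and 44.0% in Lamb2, against a median of 52.7% over all promoters.

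To compare levels between genes, normalized CPM were divided by the exonic length in kilobases. In vehicle cells Nid1 led by far, at 132 ± 6.32 CPM per kb (SD, n = 2), followed by Lamb1 at 24.5 ± 0.463, Lamc1 at 18.6 ± 1.39 and Lamb2 at 11.9 ± 0.792. Hspg2, at 6.51 ± 0.280 CPM per kb, and Lama4, at 6.44 ± 0.319, did not differ beyond their spread. Nid2 followed at 1.06 ± 0.350 CPM per kb, Lama2 at 0.126 ± 0.0659 and Lama5 at 0.0257 ± 0.00239. Among the members, Lama4 was thus the leading α chain in vehicle cells and Lamb1 the leading β chain, and Nid1 stood above every laminin chain of the set. Laminin chains outside the set were not examined. With TGF-β1 and DMSO, Lamb1 (40.0 ± 9.11 CPM per kb) and Nid1 (36.1 ± 15.4) were the highest and did not differ beyond their spread. With TGF-β1 and BI6727, Lamb1 at 49.1 ± 1.49 CPM per kb lay above Nid1 at 42.0 ± 1.15. Nid1 held 66.2% and 64.9% of the summed level of the 9 genes per kb in the vehicle libraries, 37.0% and 32.6% with DMSO, and 35.6% and 35.3% with BI6727. The share of Lamb1 was 11.8% and 12.7% in vehicle, 36.5% and 43.5% with DMSO, and 41.5% and 41.4% with BI6727. For both genes the vehicle libraries did not overlap with the others. These shares are not independent, since a lower Nid1 level by itself raises the share of Lamb1. The mean summed level of the 9 genes was 201 CPM per kb in vehicle, 102 with DMSO and 118 with BI6727.

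**Figure D1:**
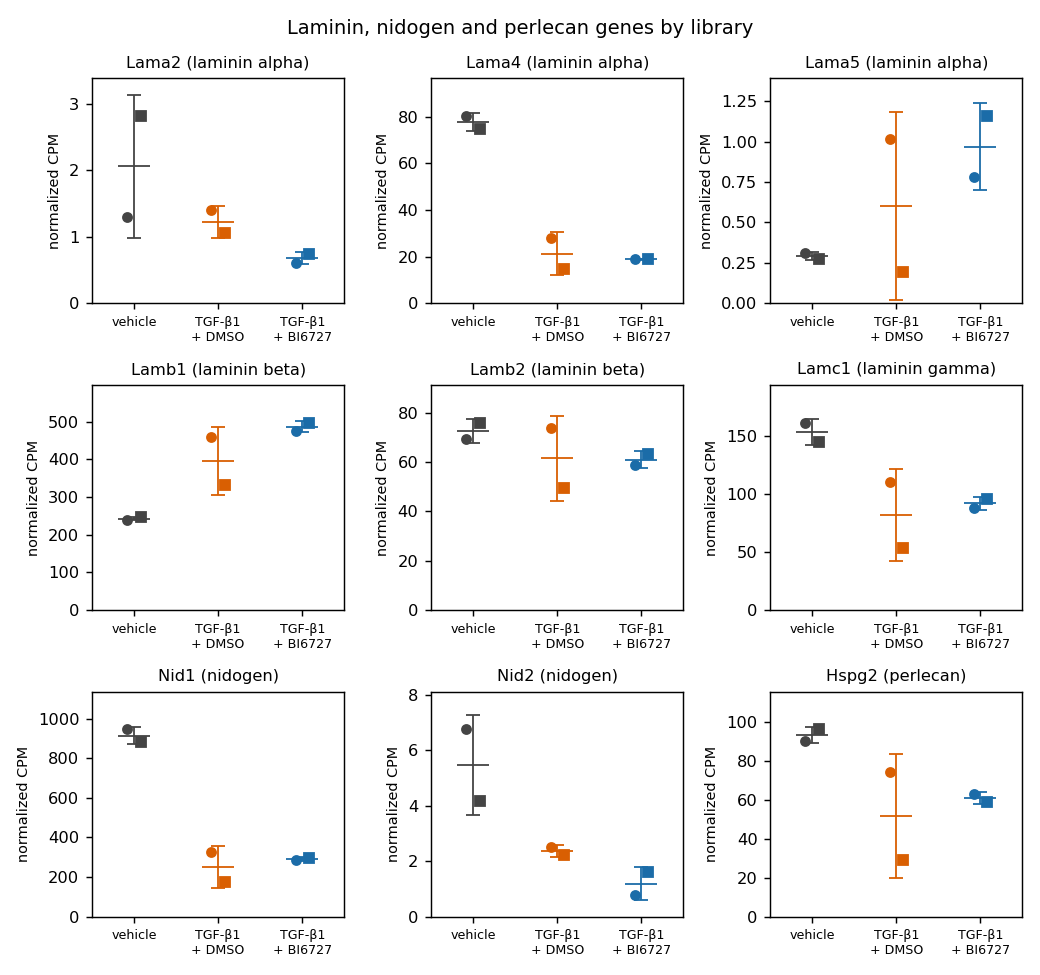
Normalized CPM (linear axes from 0, a separate axis for each gene) of the 9 genes in the vehicle, TGF-β1 + DMSO and TGF-β1 + BI6727 libraries, with circles for replicate 1, squares for replicate 2, and bars for the mean ± SD of 2 libraries. Lama4 lay between 75.0 and 80.4 in vehicle and between 14.7 and 27.9 in all treated libraries, Lamb1 lay higher in every treated library, and the DMSO replicates were further apart than the others for all 6 genes that passed the filter.

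The first comparison asked how 72 h of TGF-β1 with DMSO changed these genes against vehicle. Lama4 and Nid1 fell, by 3.65-fold each, and no member rose past the threshold, which was a Benjamini-Hochberg adjusted p below 0.01 with a fold change above 2 in edgeR's quasi-likelihood test. Of the 6 members tested, 2 were therefore called lower and 0 higher, where over all genes tested 2.53% were called lower and 2.56% higher. In the fit with the low genes, 2 of 9 members were called lower, where 3.23% of the genes were called lower and 2.75% higher. The median log2 fold change of the 6 members was -0.88 against -0.0045 over all genes tested. The libraries of both groups did not overlap for 5 of the 6 members, 4 lower and 1 higher, where this held for 62.9% of all genes tested.

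Lama4 (mm10 chr10:38965515-39110188, plus strand) encodes the α chain of laminins in vessel walls and other mesenchymal tissue. It stood at 80.4 and 75.0 normalized CPM in the vehicle libraries, 27.9 and 14.7 with DMSO, and 18.7 and 19.0 with BI6727. All 4 treated libraries lay far below both vehicle libraries. In RNA from whole cultures, fewer cells that express a gene and less RNA per cell cannot be told apart. The log2 fold change with TGF-β1 and DMSO was -1.87 ± 0.26 (SE, adjusted p = 0.00304). Lama4 made up 96.9% to 98.4% of the summed level per kb of Lama2, Lama4 and Lama5 in vehicle. In the treated libraries it made up 91.4% to 93.7%, so it remained the leading α chain of the set.

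Lama2 and Lama5 were barely expressed. Lama2 (chr10:26980036-27619758, minus strand), the α chain of muscle and peripheral nerve, held 25 and 62 counts in the vehicle libraries, 29 and 22 with DMSO, and 11 and 18 with BI6727. An antisense gene overlapped 3.86% of its exons. Its log2 fold change with DMSO against vehicle was -0.74 ± 0.47 (adjusted p = 0.290). Lama5 (chr2:180176373-180225859, minus strand), the α chain of epithelial and vessel basement membranes, held 6 counts in each vehicle library, 21 and 4 with DMSO, and 14 and 28 with BI6727. The DMSO libraries fell on both sides of the vehicle level, and the log2 fold change of 1.04 ± 0.81 had an adjusted p of 0.390. The ratio of Lama5 to Lama4 per kb was at most 0.0648 in any library.

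Lamb1 (chr12:31265234-31329644, plus strand), the widely expressed β chain, was the only one of the 6 tested members with a positive fold change in this comparison. Its level was 239.6 and 246 normalized CPM in vehicle, 460.2 and 332 with DMSO, and 477 and 498 with BI6727. Every treated library lay above both vehicle libraries, and DMSO replicate 2 was the lowest of the 4. The log2 fold change with DMSO was 0.71 ± 0.15, a 1.63-fold difference that did not pass the threshold (adjusted p = 0.0167).

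Lamb2 (chr9:108479736-108490530, plus strand), the β chain of the neuromuscular junction and the kidney glomerulus, stood at 69.3 and 76.1 normalized CPM in vehicle, 73.8 and 49.4 with DMSO, and 58.7 and 63.5 with BI6727. The DMSO libraries overlapped with the vehicle libraries, and the log2 fold change was -0.24 ± 0.18 (adjusted p = 0.369).

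Lamc1 (chr1:153218922-153332786, minus strand), the γ chain shared by most laminins, was measured at 162 and 145 normalized CPM in vehicle, 110.2 and 53.9 with DMSO, and 88.0 and 96.0 with BI6727. Both DMSO libraries lay below vehicle but were far apart, and the log2 fold change of -0.90 ± 0.29 did not pass the threshold (adjusted p = 0.0596).

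Nid1 (chr13:13437551-13512269, plus strand) stood at 945 and 883 normalized CPM in vehicle, 326 and 175 with DMSO, and 286 and 297 with BI6727. Even the highest treated library lay far below both vehicle libraries. Its log2 fold change with DMSO was -1.87 ± 0.26 (adjusted p = 0.00289), the same size as that of Lama4. Other genes overlapped 2.06% of the Nid1 exons. The second nidogen, Nid2 (chr14:19751265-19811787, plus strand), was low, with 130 and 92 counts in vehicle, 52 and 46 with DMSO, and 14 and 39 with BI6727. In each group both Nid2 values were below those of the group before it in that order, and the log2 fold change with DMSO was -1.19 ± 0.37 (adjusted p = 0.0526). Other genes overlapped 8.45% of its exons, and the setting for strand in the counting is not given in the sources used here.

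Hspg2 (chr4:137468769-137570630, plus strand), the gene of perlecan, was measured at 90.4 and 96.0 normalized CPM in vehicle, 74.0 and 28.9 with DMSO, and 63.0 and 58.7 with BI6727. It had the widest gap between the DMSO replicates of the 6 tested members, and its log2 fold change of -0.86 ± 0.36 did not pass the threshold (adjusted p = 0.128).

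**Figure D2:**
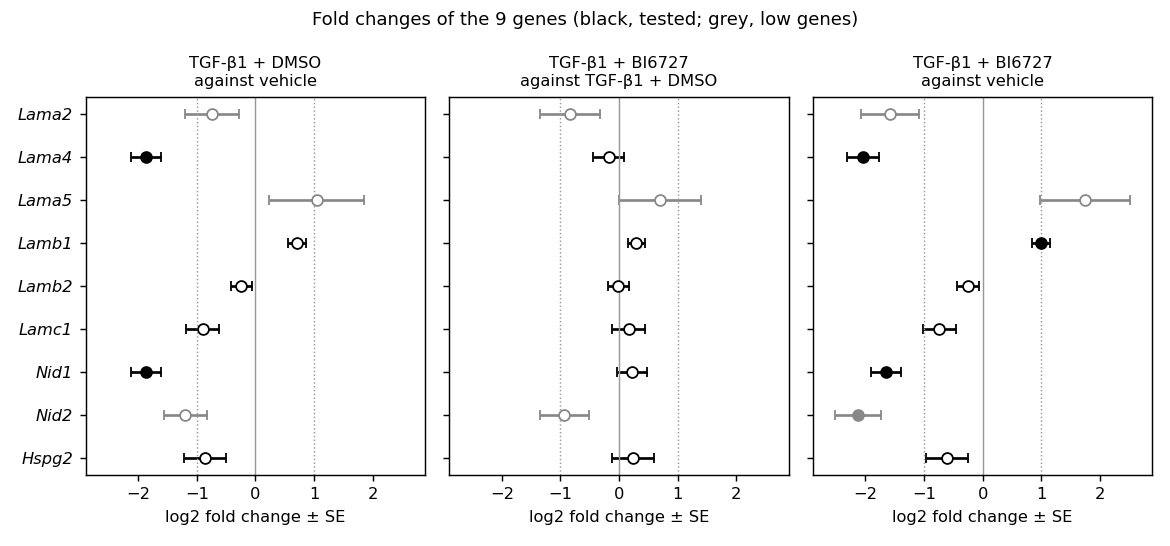
Log2 fold change ± SE of the 9 genes in the 3 comparisons, from edgeR with 2 libraries per group, where black marks the 6 genes that passed the expression filter, grey the 3 low genes of the wider fit, filled points the called genes, and dotted lines a 2-fold change. Lama4 and Nid1 lay near -1.87 and were called in the left panel, no gene was called in the middle panel, and Lama4, Nid1, Nid2 and Lamb1 were called in the right panel.

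The calls changed with the libraries in the fit. Without any of the vehicle or BI6727 libraries in turn (4 fits) 0 members were called, with Lama4 and Nid1 still lower at adjusted p of up to 0.0476, and the share of all genes called lower in those fits was between 0.504% and 1.91%. Without DMSO replicate 1, 4 members were called lower, where 5.12% of all genes were called lower and 3.2% higher. These 4 included Lamc1 (log2 fold change -1.52) and Hspg2 (-1.69). In a fit with 1 DMSO library, that library was assumed to vary like the libraries of the other groups. The gap between the DMSO replicates did not enter such a fit, so its calls are not stronger evidence than those of the full fit. Without DMSO replicate 2 the log2 fold changes were -1.47 for both Lama4 and Nid1, which were called, -0.47 for Lamc1 and -0.32 for Hspg2.

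In DMSO replicate 2 all 6 tested members were lower than in DMSO replicate 1. The log2 difference was -1.35 for Hspg2, -1.03 for Lamc1, -0.92 for Lama4, -0.90 for Nid1, -0.58 for Lamb2 and -0.47 for Lamb1. Long genes were lower in that library in general, and the members are long, with exonic lengths of 6082 to 14307 bases where the median of genes tested was 4426. The trend of all genes at the same length was -0.50 for Hspg2, -0.27 for Lamc1, -0.43 for Lama4, -0.20 for Nid1, -0.14 for Lamb2 and -0.34 for Lamb1, so each member lay below it. With the length trend of each library removed, Lama4 (log2 fold change against vehicle -1.69) and Nid1 (-1.79) were still called, and Lamb1 had 0.87 at an adjusted p of 3.45e-05 with a fold change under 2.

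**Figure D3:**
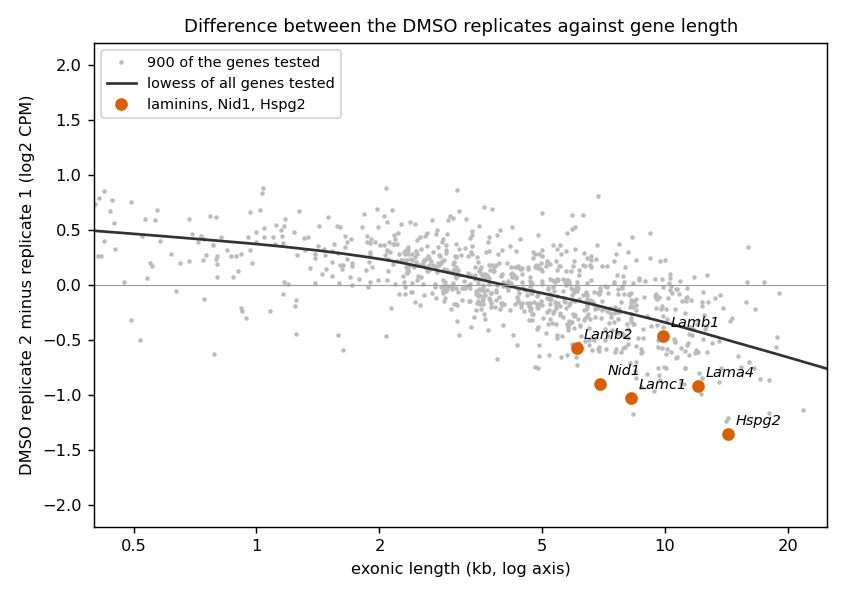
Log2 difference in CPM of DMSO replicate 2 minus DMSO replicate 1 (vertical axis) against exonic length in kb (log axis), with a random part of the genes tested as grey points, the lowess of all genes tested as a line, and the 6 tested members in orange. The line falls with length, and the 6 members lie below it, Hspg2 lowest at -1.35.

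A ratio between genes of the same library does not depend on how libraries were scaled. It can still depend on the trend with gene length, since these genes differ in length. That trend between the DMSO replicates was -0.34 at the length of Lamb1 and -0.14 at that of Lamb2, and the ratios were not corrected for it. The ratio of Lamb1 to Lamb2 per kb was 2.12 and 1.98 in vehicle, 3.83 and 4.12 with DMSO, and 4.98 and 4.81 with BI6727. The 3 groups thus did not overlap, and Lamb1 was the higher of these 2 β chains throughout. Its share of the summed Lamb1 and Lamb2 level was 68.0% and 66.5% in vehicle, 79.3% and 80.5% with DMSO, and 83.3% and 82.8% with BI6727.
Lamb1 and Lamb2 summed stood at 1.82 and 2.12 times the Lamc1 level per kb in vehicle, 4.39 and 6.40 times with DMSO, and 5.43 and 5.22 times with BI6727. Lama2, Lama4 and Lama5 summed stood at 0.346 and 0.365 of the Lamc1 level in vehicle, 0.186 and 0.199 with DMSO, and 0.156 and 0.148 with BI6727. Relative to Lamc1, transcripts of these β chains were thus higher and those of these α chains lower in every treated library than in either vehicle library. The ratios of Nid1 and of Lamb1 to Lamc1, and the shares given as percentages, were added after the values were seen. Nid1 stood at 6.96 and 7.23 times the Lamc1 level per kb in vehicle, 3.53 and 3.86 times with DMSO, and 3.87 and 3.68 times with BI6727. In the ratios of Nid1 and of the α chains the DMSO replicates lay close together, at SDs of 0.239 and 0.00921, although the levels of these genes differed widely between them. The sum of the 6 laminin chains per kb was 61.9 and 61.3 CPM per kb in vehicle, 74.3 and 49.5 with DMSO, and 70.0 and 73.9 with BI6727, and the DMSO libraries fell on both sides of vehicle. With 2 libraries against 2 an exact permutation test cannot give a p below 0.333, so no test of the ratios is given.

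**Figure D4:**
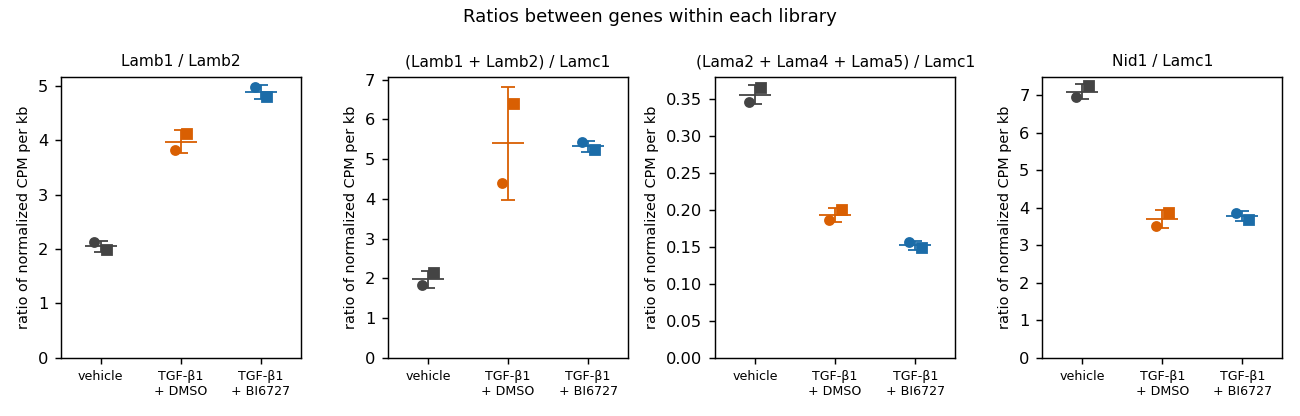
Ratios of normalized CPM per kb within each library (linear axes from 0) for Lamb1 to Lamb2, summed Lamb1 and Lamb2 to Lamc1, summed Lama2, Lama4 and Lama5 to Lamc1, and Nid1 to Lamc1. Circles mark replicate 1, squares replicate 2, and bars the mean ± SD of 2 libraries. The 2 β chain ratios are higher and the other two lower in all 4 treated libraries than in both vehicle libraries.

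The second comparison asked whether BI6727 changed these genes in cells that received TGF-β1. Of the 6 members, 0 were called by edgeR, 0 had an unadjusted p below 0.05, and 0 were called by DESeq2. Among all genes tested 0% were called higher and 0% lower with either filter, 636 had an unadjusted p below 0.05, the smallest adjusted p was 0.0565, and DESeq2 called 0 higher and 11 lower. The log2 fold change of BI6727 against DMSO was 0.30 for Lamb1 (95% interval -0.059 to 0.65), 0.24 for Hspg2 (-0.60 to 1.09), 0.22 for Nid1 (-0.37 to 0.81), 0.17 for Lamc1 (-0.50 to 0.83), -0.01 for Lamb2 (-0.44 to 0.42) and -0.17 for Lama4 (-0.80 to 0.45), with adjusted p between 0.759 and 0.992. Lamb1 was the only one of the 6 whose libraries did not overlap, being higher with BI6727, where 34.1% of all genes tested did not overlap. The intervals of Lamb1, Lamb2, Lama4, Lamc1 and Nid1 lay within a 2-fold change either way, and that of Hspg2 reached past it. The low genes had wider intervals, -1.88 to 0.012 for Nid2, -2.01 to 0.35 for Lama2 and -0.88 to 2.28 for Lama5. Without DMSO replicate 1, Hspg2 was called higher with BI6727, at a log2 fold change of 1.07. In that fit 0.525% of all genes were called higher and 0.116% lower, and the gap between the DMSO replicates did not enter it. Without DMSO replicate 2 the log2 fold change of Hspg2 was -0.30, so the sign turned on which DMSO library was kept.

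The third comparison set TGF-β1 with BI6727 against vehicle. It shares the vehicle libraries with the first, so its values are given beside those and not as further support. Lama4 fell, at a log2 fold change of -2.04 ± 0.27 (adjusted p = 0.00201), as did Nid1 at -1.65 ± 0.26 (adjusted p = 0.00437). Lamb1 rose, at 1.00 ± 0.15 (adjusted p = 0.00394), a 2.01-fold change that lay just past the threshold. Thus 2 of the 6 tested members were called lower and 1 higher, where 2.96% of all genes tested were called lower and 2.34% higher. Lamc1 had a log2 fold change of -0.74 ± 0.28 (adjusted p = 0.103), Hspg2 -0.62 ± 0.36 (adjusted p = 0.254) and Lamb2 -0.25 ± 0.18 (adjusted p = 0.364). The spread in these edgeR tests was estimated over all 6 libraries, the DMSO libraries included. Under the alternatives that left out no single library, adjusted p was 7.10e-08 to 0.103 for Lamc1 and 9.95e-07 to 0.254 for Hspg2. For Lamb2 it was 0.0137 to 0.425. Each stayed under a 2-fold change there. All 6 tested members did not overlap between the groups, 5 lower and 1 higher, where this held for 76.8% of all genes tested. The median log2 fold change of the members was -0.68 against 0.0029 over all genes tested. In the wider fit, where 3.71% of genes were called lower and 2.51% higher, Nid2 also fell, at -2.13 ± 0.40 (adjusted p = 0.00649), and with the replicate number as a block it was no longer called (-2.11, adjusted p = 0.0133), nor was it without any of the vehicle or BI6727 libraries in turn, at adjusted p of up to 0.0754. Lama2 had -1.58 ± 0.50 (adjusted p = 0.0535) and Lama5 1.74 ± 0.77 (adjusted p = 0.143). Without any of the vehicle or BI6727 libraries in turn, the calls of Lama4, Nid1 and Lamb1 were lost. Fewer of all genes tested were called in those fits as well. With any 1 library left out, the log2 fold change was -2.09 to -2.00 for Lama4, -1.70 to -1.60 for Nid1 and 0.97 to 1.03 for Lamb1. The direction of each was thus kept.

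The members were then set beside other genes linked to the basement membrane, in 5 lists of which 40 genes passed the expression filter. These were 6 glycoproteins and 4 collagens of the membrane itself, 7 laminin receptor genes, 11 genes for the sugar of dystroglycan and 12 for heparan sulfate. Of these 40 genes, 3 were called higher and 2 lower with DMSO against vehicle, where over all genes tested 2.56% were higher and 2.53% lower. With BI6727 against vehicle 3 were called higher and 5 lower, where the shares over all genes were 2.34% and 2.96%. With BI6727 against DMSO 0 were called by edgeR or DESeq2, and 3 had an unadjusted p below 0.05, as 6.68% of all genes had. Without DMSO replicate 2, 7 were called higher and 2 lower with DMSO against vehicle, where 2.85% of all genes were called higher and 2.33% lower in that fit.

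Among 14 other glycoproteins of the basement membrane, 6 were tested. Agrn (agrin), which carries heparan sulfate as perlecan does and binds the laminin coiled coil, was measured at 65.2 and 72.4 normalized CPM in vehicle, 185 and 122 with DMSO, and 175 and 178 with BI6727. It rose in both comparisons with vehicle, at log2 fold changes of 1.16 ± 0.18 (adjusted p = 0.00500) and 1.36 ± 0.18 (adjusted p = 0.00242). Sparc, a collagen-binding matricellular protein, and Smoc1, a calcium-binding relative of it, fell with BI6727 against vehicle, at -1.17 ± 0.14 (adjusted p = 0.00122) and -1.14 ± 0.18 (adjusted p = 0.00438). Their log2 fold changes with DMSO against vehicle were -0.86 and -0.54, under a 2-fold change.

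Of 8 basement membrane collagens 4 were tested, and 2 fell in both comparisons with vehicle. Col4a6, the α6 chain of type IV collagen, stood at 89.5 and 93.6 normalized CPM in vehicle, 19.0 and 11.1 with DMSO, and 16.9 and 18.5 with BI6727, at log2 fold changes against vehicle of -2.60 ± 0.23 (adjusted p = 0.000424) and -2.37 ± 0.23 (adjusted p = 0.000544). Col4a5, the α5 chain that assembles with it, had -1.70 ± 0.25 and -1.74 ± 0.25 (adjusted p = 0.00361 and 0.00299). Col4a1 and Col4a2, named after their values were seen, encode the common type IV collagen chains to which nidogen bridges, and they had log2 fold changes of 0.85 and 0.80 with DMSO against vehicle (adjusted p = 0.0182 and 0.0351). They were called higher in neither comparison, and without DMSO replicate 2 the list had 2 genes called higher with DMSO, besides the 2 lower.

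Laminin receptors had 7 of 10 genes tested, with 1 higher and 0 lower in both comparisons with vehicle. Itga3, the α subunit of an integrin for laminins with the α5 and α3 chains, stood at 8.57 and 9.37 normalized CPM in vehicle, 28.2 and 23.4 with DMSO, and 30.8 and 28.9 with BI6727, and rose at log2 fold changes of 1.52 ± 0.16 and 1.73 ± 0.16 (adjusted p = 0.000771 and 0.000409). Itgb1, the β subunit that pairs with it, had 0.72 ± 0.11 with DMSO against vehicle (adjusted p = 0.00384), under a 2-fold change. Dag1 (dystroglycan) had -0.47 ± 0.17 (adjusted p = 0.0946). Of the genes that build the laminin-binding sugar on dystroglycan, 11 of 13 were tested and 0 were called in either comparison with vehicle by edgeR or DESeq2, where 7 and 6 had an unadjusted p below 0.05, as 37.8% and 37.7% of all genes tested had. The 2 with the highest levels, Pomgnt1 and Rxylt1, had log2 fold changes of 0.32 and 0.58 with DMSO against vehicle. B3galnt2, named after its values were seen, had the largest change of this list, at 0.97 ± 0.13 (adjusted p = 0.00219), just under a 2-fold change.

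For the synthesis and editing of heparan sulfate, the sugar chain of perlecan, 12 of 18 genes were tested. B4galt7, which adds the first galactose of the linker between protein and chain, rose with DMSO (1.54 ± 0.14, adjusted p = 0.000458) and with BI6727 (1.59 ± 0.14, adjusted p = 0.000354) against vehicle. Sulf2, which removes sulfate from finished chains, fell with BI6727 against vehicle (-1.09 ± 0.14, adjusted p = 0.00165) and had -0.92 ± 0.13 with DMSO (adjusted p = 0.00349), under a 2-fold change. The median log2 fold change of this list with DMSO against vehicle was -0.24, that of the receptors 0.22 and that of the O-mannosylation genes 0.072.

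**Figure D5:**
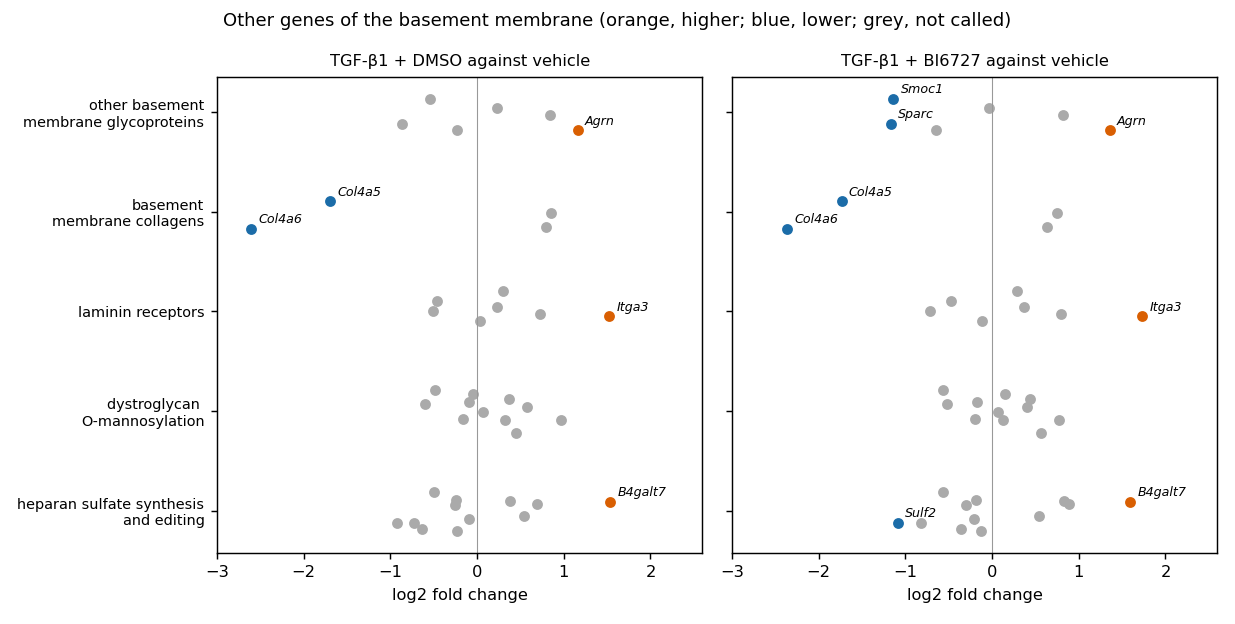
Log2 fold change (horizontal axis, from edgeR with 2 libraries per group) of the 40 tested genes in 5 lists, each point a gene. The lists hold basement membrane glycoproteins and collagens, laminin receptors, and genes for the sugars of dystroglycan and perlecan. TGF-β1 + DMSO against vehicle is on the left and TGF-β1 + BI6727 against vehicle on the right. Col4a6, at -2.60 and -2.37, and Col4a5, at -1.70 and -1.74, are called lower in both panels, and Agrn, Itga3 and B4galt7 are called higher in both.

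Markers of pericytes and smooth muscle also differed between the groups. Their summed level was 154 and 178 normalized CPM in vehicle, 693 and 599 with DMSO, and 521 and 515 with BI6727, nearly all of it from Acta2 and Cspg4, the 2 of 8 that passed the filter. Acta2 (smooth muscle actin) and Cspg4 rose in both comparisons with vehicle, at log2 fold changes of 2.30 and 1.37 with DMSO and 1.81 and 1.45 with BI6727, while Myh11 had at most 2 counts in any library. The other 5 were low and not tested. Rgs5 was at 0.883 and 1.46 normalized CPM in vehicle and at most 0.111 in any treated library, Cnn1 at 1.30 and 0.956 in vehicle and at most 0.580 in any treated library, Tagln at 0.467 and 0.273 in vehicle and 0.821 to 1.59 in the treated libraries, and Mcam and Des overlapped between vehicle and DMSO. Of 9 fibroblast markers tested, 1 was called lower with DMSO against vehicle and 3 with BI6727, where 2.53% and 2.96% of all genes were. Pdgfra fell in both comparisons (-1.87 and -1.80). Thy1 and Pdgfrb were called lower with BI6727 (log2 fold changes -1.0 and -1.2) and not with DMSO (-0.91 and -0.73). For Thy1 the adjusted p with DMSO was 0.00115, at under a 2-fold change. Col1a2 and S100a4 were negative in both and not called. Col1a1, Fn1, Col3a1 and Vim were positive with DMSO (0.67, 0.45, 0.29 and 0.28) and not called. With BI6727 they had 0.0085, 0.69, -0.60 and 0.13. The part of these differences in those of the members was not tested.

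The genes whose pattern over the 6 libraries lay nearest to 3 of the members were found by the root mean square difference of log2 CPM centred on the vehicle mean, among 9512 genes. Nearest to Nid1 were Pdgfra, a growth factor receptor of mesenchymal cells, at 0.093, Thbs2, a secreted matricellular protein, at 0.11, and Ppp1r12b, a myosin phosphatase subunit, at 0.14. Their log2 fold changes with DMSO against vehicle were -1.87, -1.99 and -1.87. For Lamc1 the nearest were Vcan, a large chondroitin sulfate proteoglycan, at 0.064, Pcdhgb2, a protocadherin, at 0.069, and Tanc2, a scaffold protein, at 0.094. For Hspg2 they were Fryl at 0.10, Spen, a transcriptional repressor, at 0.12, and Irs1, an adaptor of insulin signalling, at 0.13, with log2 fold changes between -0.69 and -0.90 with DMSO against vehicle. All of these patterns were read from the same 6 libraries, the gap between the DMSO replicates included.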

How the data were processed

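RNA was sequenced after rRNA removal on a BGISEQ-500 with single-end reads. The authors aligned the reads to mm10 with Subjunc (Subread 1.6.4) and used featureCounts with the Gencode M20 annotation. The deposited values are raw counts per gene. The processing notes also name DESeq2 1.22.2 and R 3.6.1. Here counts were compared with edgeR 4.0.16 in R 4.3.3 (TMM, quasi-likelihood test, 1 fit of 6 libraries, 3 residual degrees of freedom), and the standard error was the log2 fold change divided by the square root of F. Symbols matched 54723 of 54752 identifiers. Log2 CPM used a prior count of 1. DESeq2 1.42.0, other filters and scalings, only the groups compared, the replicate block, length offsets (lowess, span 0.3) and each library left out were alternatives. The crossed block and the list counts without DMSO replicate 2 were added after seeing the data. The members and lists were chosen with earlier results of these data known. Named genes were the 9 members, from each list the called genes (at most 4 per direction) or, where fewer than 2 were called, the 2 with the highest level, and the 3 nearest patterns to Lamc1, Nid1 and Hspg2. Counting depth gives intervals for counting error only, and 3 counts, the floor, are under 0.17 normalized CPM in each library. Some items that this rule covers are not reported here. Figures were drawn with matplotlib 3.10.9.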

Additional observations from a re-analysis of the deposited data

How the results depend on the processing

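Of the values of the 6 tested members under the alternatives, 236 kept their direction and side of the threshold, 22 lost the call with the direction kept, 3 gained one and 9 turned sign; of the 3 low members, 119 kept both, 5 lost the call and 2 turned sign. With only the 2 groups compared, 0 members were called with DMSO against vehicle (Lama4 adjusted p = 0.0105, Nid1 0.0104). Leaving out 1 library gave 0 to 4 members called with DMSO against vehicle, 0 to 1 with BI6727 against DMSO and 0 to 3 with BI6727 against vehicle. When a group is left with 1 library, that library is assumed to vary like the other groups. The share of all genes called also changed with the library left out. The numbers of members called in these fits therefore cannot be read as changes of the members alone. Deviations of same-numbered libraries correlated over 9518 genes at r = -0.11 (vehicle and DMSO), -0.26 (DMSO and BI6727) and 0.047 (vehicle and BI6727). Each r rests on 1 difference between replicates per group, and that of the DMSO group was much wider than the others. These values therefore cannot tell whether the replicate numbers pair the libraries. With the replicate block the members called were 2, 0 and 3 in the 3 comparisons, as in the fit without it and with the crossed block, and Lamb2 with BI6727 against DMSO turned sign from -0.01 to 0.0016 with the block and 0.0080 with the crossed block. Leaving out 1 library gave log2 fold changes that turned sign with DMSO against vehicle for Lamb2 (-0.56 to 0.032) and Lama5 (-0.58 to 1.81), and with BI6727 against DMSO for Lama4 (-0.58 to 0.36), Lama5 (-0.060 to 2.33), Lamb2 (-0.28 to 0.31), Lamc1 (-0.27 to 0.78), Nid1 (-0.18 to 0.74) and Hspg2 (-0.30 to 1.07). The causes were not tested. The order of the members per kb was the same at all 27 positions with DESeq2's size factors. With 2 libraries per group and DMSO replicates this far apart, differences between the TGF-β1 groups within the intervals given were not detectable.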
